A study of Homo sapiens with 4 samples.

Results

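Molecular chaperones help other proteins fold, keep unfolded chains from aggregating and pass damaged ones on for breakdown. HSP70 proteins (the HSPA genes) bind short exposed stretches of a client and let go of it in a cycle driven by ATP. J proteins (the DNAJ genes) deliver clients and start that cycle, and HSP110 proteins (HSPH1, HSPA4 and HSPA4L) help to exchange the nucleotide. HSP90 proteins act late in folding, the HSPD1 and HSPE1 proteins form the folding chamber of the mitochondrial matrix, and small heat shock proteins (the HSPB genes) hold unfolded clients without ATP. The heat shock factor HSF1 drives many of these genes, and the unfolded protein response drives those of the endoplasmic reticulum (ER).

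The genes described here are the protein-coding genes of GENCODE 44 whose symbols begin with HSPA, HSPB, HSPD, HSPE, HSPH, HSP90 or DNAJ, 76 of 20046 protein-coding genes. Their 3′ ends were measured by PAS-seq, which sequences the ends of polyadenylated RNA, in 4 libraries of the established human esophageal squamous cell carcinoma (ESCC) lines KYSE30 and TE-1. Each line has 1 library from cells kept with l-lactate at 20 mM over 24 h and 1 from its control, kept with PBS. For the controls the cell line field reads KYSE32 and TE-3. Groups here follow the sample titles, which name KYSE30 and TE-1 as the study's methods do. Of 3 readthrough genes among the 76 (HSPE1-MOB4, DNAJC25-GNG10 and HSPB2-C11orf52), those with tags shared them with HSPE1, DNAJC25 or GNG10, so these genes carry no separate measurement. Nothing says that the libraries came from separate cultures, and with 1 library per condition a change within a line has no replicate check.

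The files list poly(A) clusters (PACs), groups of neighbouring cleavage sites, with the tags of each scaled to the total tags of its library (TPM). A tag was taken to mark 1 transcript end, so levels were not corrected for transcript length. Depth ran from 7174991 to 10393799 tags per library, and the lowest listed TPM was 1.06 to 1.12. A PAC was given to a gene when its dominant site, where most of its tags end, lay in the span of the gene on the same strand. Of 17627 PACs, 90 fell in the chaperone genes, and 55 of the 76 genes had at least 1. By line, the libraries paired as their titles say. SOX2, a squamous lineage factor, had 219.9 and 168.3 TPM in the KYSE30 libraries and was listed at 0 in both TE-1 libraries. The keratin gene KRT17 was listed at 0 in both KYSE30 libraries and had 186.8 and 244.7 TPM in the TE-1 libraries. Both genes were picked after their values were seen, and they do not check which library had l-lactate. Of 13 markers of squamous and other epithelium, KRT5, KRT14, TP63 and SFN were not listed. Of the other 9, 2 were higher in TE-1 and 7 were higher in KYSE30 (limma, described below), beside 37.2% and 36.8% of all genes. Of 11 markers of immune, endothelial, stromal and liver cells 8 were not listed and the rest summed to 5.12 to 12.5 TPM.

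Leaving the readthrough genes out, the chaperone genes took 1.36%, 1.26%, 1.21% and 1.20% of all listed TPM in KYSE30 with l-lactate, KYSE30 control, TE-1 with l-lactate and TE-1 control, an order kept for values in a row from here on. HSP90AB1, HSPD1 and HSPE1 alone made up 57.5%, 59.1%, 41.5% and 44.5% of that. Of these 73 genes, 4 had a mean of 1000 TPM or more, 12 lay between 100 and 1000, 23 between 20 and 100, 12 between 5 and 20 and 2 below 5, while 20 had no PAC. The genes without a PAC included HSPB3, HSPB6 and HSPB9 of the small heat shock proteins, HSPA1L and HSPA6 of HSP70, and DNAJB7, DNAJB8, DNAJB13, DNAJC5B and DNAJC5G of the J proteins. HSPA1B also counted as without one, but only because its site lay 1 nt past the annotated end of the gene.

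**Figure D1:**
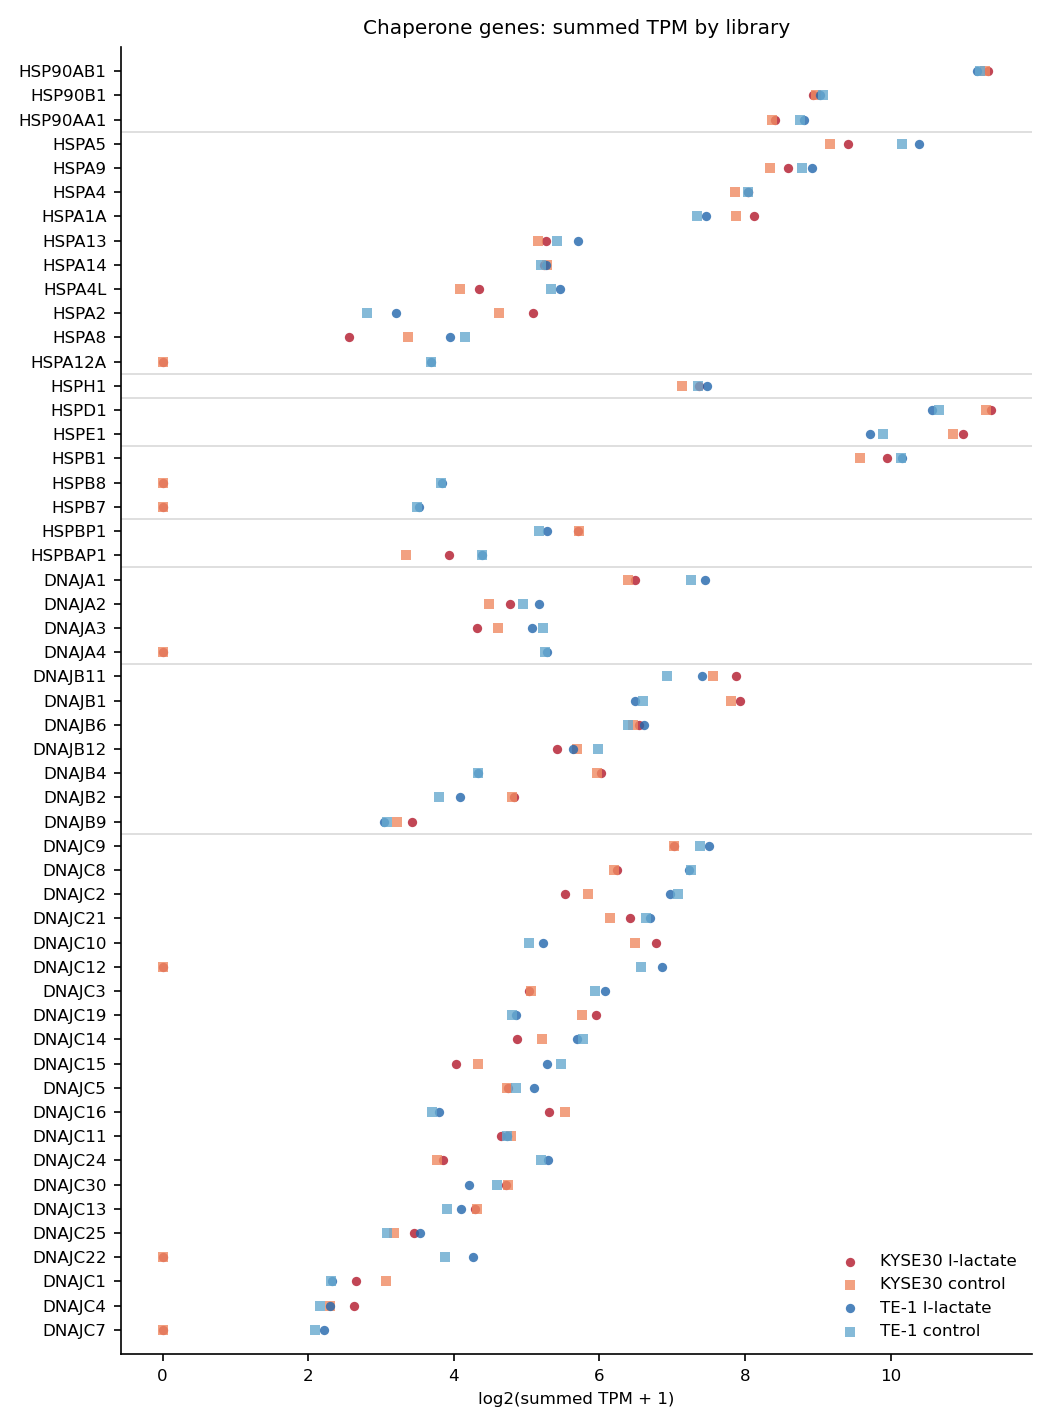
Summed TPM of each chaperone gene with a PAC, as log2(TPM + 1), in the 4 libraries (circles, l-lactate; squares, control; red tones, KYSE30; blue tones, TE-1), grouped by family and ordered by mean level. Points of a line lie together for most genes, and 7 genes sit at 0 in both KYSE30 libraries.

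The cytosolic HSP90 gene HSP90AB1 was at 2582, 2507, 2321 and 2395 TPM, and the 4 libraries lay close together. Its stress-inducible paralogue HSP90AA1 was at 340.5, 329.5, 445.9 and 431.4 TPM, with both TE-1 libraries above both KYSE30 libraries. The ER member HSP90B1 (GRP94) was at 485.7, 501.8, 520.7 and 538.9 TPM. The small heat shock protein HSPB1 (HSP27) was at 986.3, 764.8, 1139 and 1124 TPM, lowest in the KYSE30 control. HSPA9 (mortalin), the HSP70 of mitochondria, was at 384.0, 323.6, 484.5 and 439.4 TPM.

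The inducible HSP70 is made from a pair of near-identical neighbouring genes on chromosome 6. HSPA1A had 277.5, 233.5, 175.5 and 161.7 TPM and the site next to the end of HSPA1B had 96.3, 82.6, 61.3 and 61.5 TPM, so HSPA1A was above HSPA1B in each library, and for both the KYSE30 libraries were above the TE-1 libraries. Reads that match both copies cannot be told apart, and how such reads were placed is not given in the sources used here. The last 30 nt before the dominant site of each copy (GRCh38, plus strand, signal AATAAA in capitals) are shown because the copies differ there.
HSPA1A, chr6:31817912-31817941: tacttcaaagtaAATAAActttaaaattca
HSPA1B, chr6:31830226-31830255: taaatatgaaaAATAAAatgttaaactttt

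HSPA8, the constitutive cytosolic HSP70, was listed at only 4.88, 9.29, 14.4 and 16.7 TPM (35, 69, 122 and 174 tags). It has many processed pseudogenes of like sequence. Whether reads were placed on those was not tested, and this level is taken as uncertain.

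TE-1 and KYSE30 differed in most chaperone genes. In limma on log2(summed TPM + 1), with l-lactate as the other term and p-values adjusted over 9194 genes with a mean of at least 5 TPM, 39 of 51 chaperone genes tested passed the threshold of 0.05 (26 higher in TE-1, 13 higher in KYSE30), leaving out the readthrough genes. Over all genes 74.0% passed (37.2% higher and 36.8% lower in TE-1), so the share is near the background. The median difference, TE-1 minus KYSE30, was 0.26 over the 51 genes and 0.00 over all genes (log2). The 51 include 6 genes at 0 in both KYSE30 libraries that passed the filter through TE-1 alone, which raises their median. The fit has 1 residual degree of freedom per gene, which measures how far the l-lactate difference of one line departs from that of the other, and most of its spread is borrowed across genes (11.99 prior degrees of freedom).

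RNA levels of the 2 genes of the mitochondrial folding chamber were lower in TE-1, and that of the mitochondrial HSP70 gene was higher. HSPD1 (HSP60) had 2651 and 2536 TPM in KYSE30 and 1515 and 1614 in TE-1, which is 1.66-fold higher in KYSE30 (log2 difference −0.73, SE 0.06, limma adjusted p = 2.04e-07). Its lid HSPE1 (HSP10) had 2040.3 and 1860.2 TPM in KYSE30 and 842.3 and 952.7 in TE-1 (2.17-fold higher in KYSE30, log2 difference −1.12, SE 0.07, adjusted p = 1.07e-08). The groups did not overlap for either gene. The share of all genes without overlap was not counted, and 74.0% of all genes passed the test between the lines. HSPA9 went the other way, 1.31-fold higher in TE-1 (adjusted p = 1.28e-04). Among J proteins of mitochondria, DNAJC19, of the import motor, was 2.05-fold higher in KYSE30, DNAJA3 and DNAJC15 were 1.61-fold and 2.29-fold higher in TE-1, and DNAJC30 and DNAJC11 did not pass. In all, 3 of the 8 members of mitochondria were higher in TE-1 and 3 were higher in KYSE30, beside 37.2% and 36.8% of all genes.

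In the ER, 3 of the 8 members were higher in TE-1 and 3 were higher in KYSE30, with J proteins on both sides. Over all genes the shares were 37.2% and 36.8%. HSPA5 (BiP), the ER HSP70 and a classic target of the unfolded protein response, had 681.0 and 571.8 TPM in KYSE30 and 1339 and 1142 in TE-1 (1.98-fold higher in TE-1, log2 difference 0.99, SE 0.06, adjusted p = 5.42e-09). DNAJC3, an ER J protein that also restrains kinases of the translation machinery, was also higher in TE-1, at 31.8 and 32.3 TPM in KYSE30 and 66.5 and 60.2 in TE-1 (1.95-fold, adjusted p = 2.86e-06). DNAJC10, a J protein with reductase activity, was 2.83-fold higher in KYSE30, at 109.0 and 88.3 TPM against 36.4 and 31.8 in TE-1 (log2 difference −1.50, SE 0.10, adjusted p = 9.96e-09). Most DNAJC10 tags lay at a PAC without a poly(A) signal and with A-rich sequence after it (both described below). DNAJB11, a cofactor of BiP, was 1.47-fold higher in KYSE30 (adjusted p = 2.00e-05). HSP90B1 did not pass (log2 difference 0.10, SE 0.06). Of 9 genes of the unfolded protein response tested outside the families, 7 were higher in TE-1 and 1 in KYSE30, with a median of 0.61. Of 14 partners in mitochondria and the ER, 10 were higher in TE-1 and 0 in KYSE30, with a median of 0.48. Both lists stand beside the 37.2% and 36.8% of all genes that were higher in either line.

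The differences toward KYSE30 were widest in HSPA2, DNAJC16 and DNAJB4. HSPA2, the HSP70 best known from testis, had 32.9 and 23.7 TPM in KYSE30 and 8.27 and 5.97 in TE-1 (3.60-fold higher in KYSE30, adjusted p = 2.42e-07). DNAJB4 had 63.7 and 61.3 TPM in KYSE30 and 19.1 in both TE-1 libraries (3.15-fold). DNAJB1, the main stress-induced partner of HSP70, had 242.6 and 223.0 TPM in KYSE30 and 89.0 and 95.5 in TE-1 (2.51-fold, adjusted p = 5.02e-09). DNAJC16 had 38.5 and 45.1 TPM in KYSE30 and 12.9 and 12.03 in TE-1 (3.17-fold). HSPA1A was 1.51-fold higher in KYSE30 (adjusted p = 6.07e-06). The PACs of DNAJB4 also lie in the span of GIPC2 on the same strand, and its tags cannot be split between the genes.

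Genes higher in TE-1 included DNAJA1 and DNAJA3 and several J proteins with work outside folding. DNAJA1, a farnesylated J protein of the cytosol, had 88.6 and 82.7 TPM in KYSE30 and 173.6 and 151.6 in TE-1 (1.89-fold). DNAJC2, which sits at the ribosome exit, was 2.54-fold higher in TE-1, DNAJC24, of diphthamide synthesis, 2.71-fold, DNAJC8, of the spliceosome, 2.03-fold, and HSPA4L, an HSP110 protein, 2.26-fold. For DNAJA2 the span of the gene mattered: its more distal site lay 1 nt past the annotated end, and with it the difference was −0.24 (adjusted p = 0.0632) in place of 0.44 (adjusted p = 0.00775). That site had 23.8 and 28.01 TPM in KYSE30 against 10.5 and 8.76 in TE-1, while the site inside the gene had 26.3 and 21.3 against 35.1 and 30.02.

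At 0 in both KYSE30 libraries and above 0 in both TE-1 libraries were 7 chaperone genes, and 0 showed the reverse, beside 5.25% and 6.55% of the 10841 genes with a PAC (11.8% in either direction). DNAJC12, a partner of the aromatic amino acid hydroxylases, was at 115.4 and 94.1 TPM in TE-1. DNAJA4, a cytosolic J protein, was at 37.7 and 37.04 TPM. DNAJC22 was at 18.2 and 13.7 TPM, HSPB8, which works with BAG3 in autophagy of misfolded clients, at 13.3 and 13.2, HSPA12A, a distant HSP70 relative, at 11.9 and 11.8, HSPB7, a small heat shock protein of muscle, at 10.5 and 10.3, and DNAJC7, which failed the filter on low values, at 3.66 and 3.27. The other 6 passed it through TE-1 alone, and no fold is given for them. Without them, 20 of 45 genes outside the readthroughs were higher in TE-1, 13 were higher in KYSE30 and 12 did not pass.

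**Figure D2:**
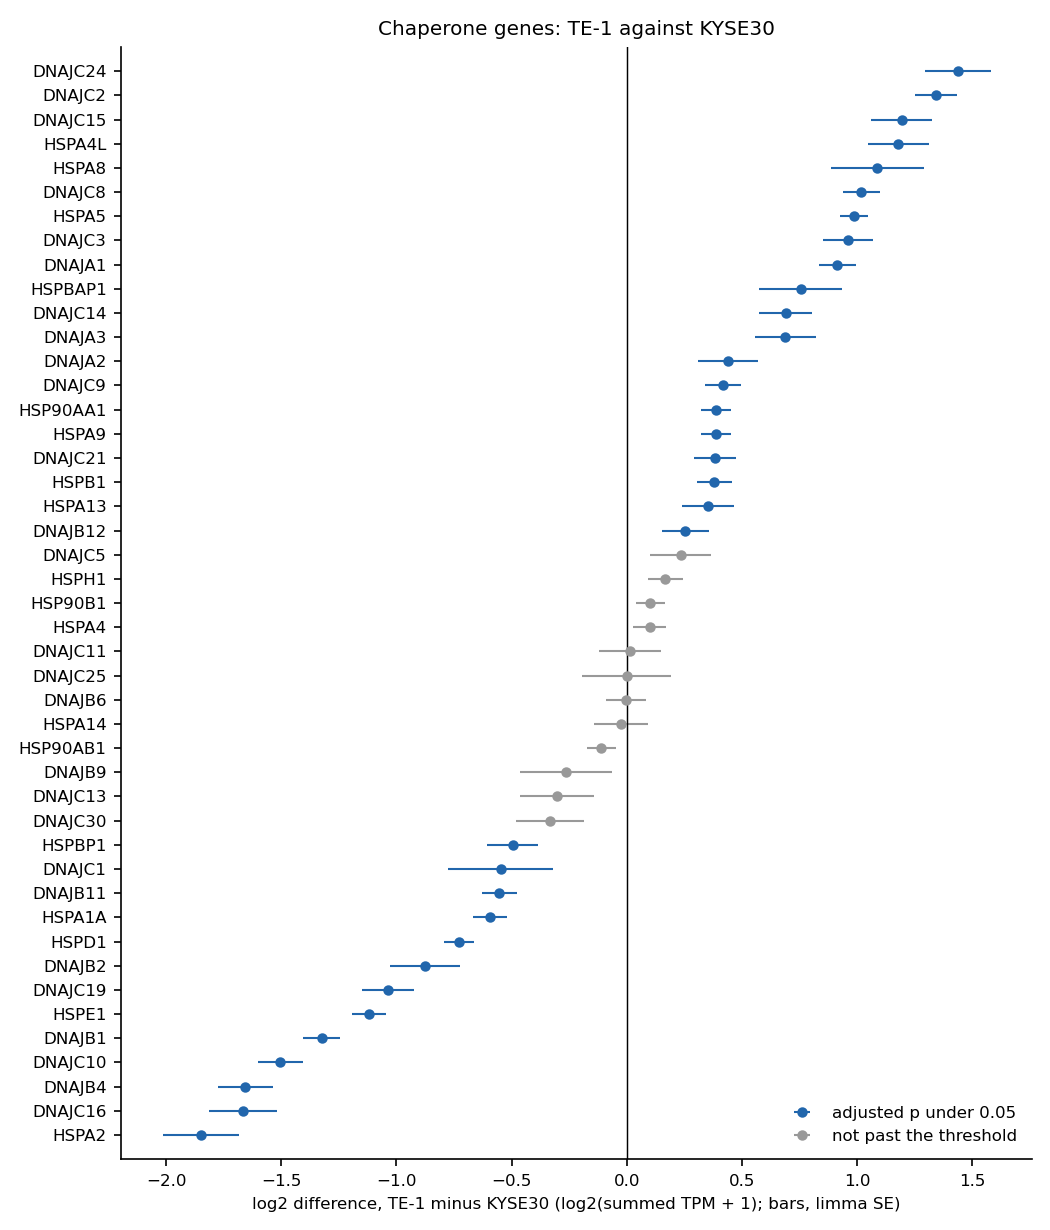
Log2 difference of summed TPM, TE-1 minus KYSE30, for the 45 chaperone genes with tags in both lines (points; bars, SE of the limma fit on 4 libraries; blue, adjusted p under 0.05). Values run from −1.85 for HSPA2 to 1.44 for DNAJC24, with HSP90AB1, HSP90B1 and HSPA4 near 0.

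Among the other proteins of the pathway, 8 of 19 heat shock factors and co-chaperones tested were higher in TE-1 and 5 were higher in KYSE30, where all genes had 37.2% and 36.8%. Of the 8 subunits of the TRiC chaperonin, which folds actin and tubulin, 6 were higher in TE-1 and 1 in KYSE30. Of 12 genes of the families that HSF1 is known to drive, 5 were higher in each line, with a median of 0.03. Lists this small are described only, beside the same shares of all genes.

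No chaperone gene passed the test for l-lactate on levels. Of 51, 0 passed the threshold for l-lactate against control in limma, beside 4 of all 9194 genes (0.0435%, 0.0326% higher and 0.0109% lower). At an unadjusted p under 0.05 there were 11 chaperone genes (8 higher and 3 lower with l-lactate), beside 10.7% of all genes (6.74% higher and 3.98% lower). The median change was 0.06 over the 51 genes and 0.02 over all genes (log2). The change had the same sign in both lines in 28 of 51 genes (20 up and 8 down), beside 52.4% of all genes (30.8% up and 21.6% down). None of the lists of co-chaperones, TRiC subunits, ER and mitochondrial partners or genes of the unfolded protein response held a gene that passed.

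The smallest p-values upward belonged to DNAJB11 and HSPA5, both of the ER. Among the 8 members of the ER, 4 were up in both lines and 1, HSP90B1, was down in both. Over all genes these shares were 30.8% and 21.6%. HSP90B1 with l-lactate was 0.968 times the control in KYSE30 and 0.966 times in TE-1. In KYSE30, DNAJB11 had 234.3 TPM with l-lactate against 188.0 without, and in TE-1 169.4 against 120.3, so the l-lactate library was above its control in both lines. The ratio was 1.25 in KYSE30 (95% counting interval 1.16 to 1.34) and 1.41 in TE-1 (1.305 to 1.52), and the log2 change over both lines was 0.40 (SE 0.08, limma adjusted p = 0.105). HSPA5, its partner, was 1.19 times the control in KYSE30 (1.14 to 1.24) and 1.17 times in TE-1 (1.14 to 1.20), with a log2 change of 0.24 (SE 0.06, adjusted p = 0.196). Neither passed, but both did with a pseudocount of 5 (adjusted p of 2.94e-04 and 0.0244) and with only genes of at least 20 TPM (0.00245 and 0.0340). Under those settings 167 of 9194 and 121 of 6065 genes passed, against 4 of 9194 in the main fit. With a pseudocount of 0.5, no filter on low values or libraries rescaled by TMM, 0 chaperone genes passed. The limma adjusted p of DNAJB11 was then 0.207, 0.659 and 0.140. DNAJB11 shares its span with an unnamed gene on the same strand, and it alone of the chaperone genes also passed with spans extended by 5 kb (0.02998). Counting intervals cover the sampling of tags only. HSPA2 had ratios of 1.39 in each line (1.14 to 1.70 in KYSE30 and 0.970 to 1.98 in TE-1), and DNAJC25 had 9.90 against 8.08 TPM in KYSE30 and 10.6 against 7.50 in TE-1. HSPA9, the HSP70 of mitochondria, had ratios of 1.19 and 1.10 (adjusted p = 0.316).

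Downward, DNAJB12, a J protein of the ER membrane, had 41.5 against 50.8 TPM in KYSE30 and 48.9 against 61.9 in TE-1 (log2 change −0.31, SE 0.10, adjusted p = 0.303). DNAJC15 had 15.3 against 19.1 TPM in KYSE30 and 37.8 against 43.3 in TE-1, and DNAJA3 had 18.96 against 23.4 and 32.8 against 36.4. On the log2(TPM + 1) scale HSPA8 was the 1 chaperone gene past 1.5-fold in KYSE30, at 4.88 against 9.29 TPM, beside 3.67% of all genes (1.87% higher and 1.79% lower). In TE-1, 0 chaperone genes were past 1.5-fold, beside 3.64% of all genes (2.39% higher and 1.25% lower). Just outside the threshold stood HSPBAP1, a protein that binds HSPB1, at 14.2 against 9.16 TPM in KYSE30 (log2 change 0.58) and 19.96 against 20.01 in TE-1.

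The 4 highest genes gave the following ratios. HSP90AB1 with l-lactate was 1.03 times the control in KYSE30 and 0.969 times in TE-1. HSPD1 was 1.05 and 0.938 times, and HSPE1 1.10 and 0.884 times. HSPB1 was 1.29 times in KYSE30 (1.25 to 1.34) and 1.01 times in TE-1 (0.986 to 1.04), and the difference between the lines was not tested.

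**Figure D3:**
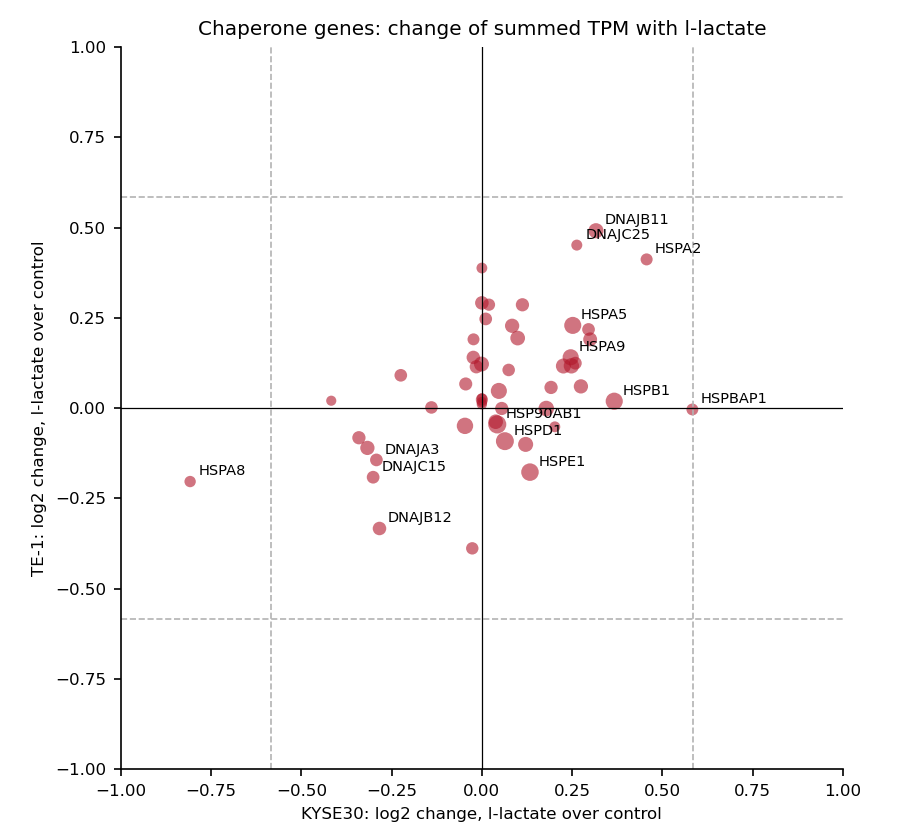
Log2 change of summed TPM with l-lactate in KYSE30 (x axis) and in TE-1 (y axis) for the 51 chaperone genes tested outside the readthroughs (points, larger for higher mean TPM; dashed lines, 1.5-fold). DNAJB11, HSPA2 and HSPA5 lie above 0 in both lines, DNAJB12 and HSPA8 below 0 in both, and HSPA8 is the point past 1.5-fold.

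Chaperone genes used about as many ends as other genes. Of 55 with a PAC, the readthrough genes counted, 31 had 1, 16 had 2 and 8 had 3 or more. At least 2 were found in 43.6%, against 35.0% of 10841 protein-coding genes. The most were in HSP90B1, with 5, and HSP90AB1 and DNAJC10, with 4 each. The libraries listed 75, 78, 88 and 85 of the 90 PACs. Of these PACs, 11 were listed only in TE-1 (12.2%) and 1 only in KYSE30 (1.11%), where all protein-coding genes had 9.66% and 10.1%. In 3′ UTRs lay 75 of the 90 PACs and 96.8% to 98.3% of the TPM. The PAC that DNAJC25-GNG10 shares with GNG10 is counted among them. A poly(A) signal, AATAAA or ATTAAA in the 50 nt before the site, was found at 80.0% of these 75 PACs and at 83.5% of all 3′ UTR PACs, and UGUA, the motif bound by the CFIm complex and written TGTA in DNA, stood in the last 100 nt at 64.0% and 58.1%. The dominant site moved by more than 24 nt with l-lactate in 3 of 63 PACs in KYSE30 (HSPA14, DNAJC9 and DNAJA1, by −41, −110 and 244 nt, positive downstream) and in 1 of 69 in TE-1 (DNAJB4, by 110 nt), beside 1.43% and 1.24% of all PACs.

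Distal usage is the share of 3′ UTR tags in the most distal 3′ UTR PAC, among PACs above 5 TPM in at least 1 library. It could be fitted for 15 chaperone genes of 1939 genes. Between the lines, 4 of the 15 passed (DNAJB6, DNAJC11, DNAJC9 and HSPA4), all with less distal usage in TE-1, beside 26.2% of all genes (18.5% lower and 7.68% higher in TE-1). With l-lactate 0 of 15 passed in limma and 0 of 1939 genes did (0.0%). At an unadjusted p under 0.05 there were 4 of 15 (DNAJC10 and DNAJC9 higher, DNAJB6 and HSPA13 lower), beside 10.6% of all genes (4.02% higher and 6.6% lower).

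DNAJB6, a J protein that keeps polyglutamine chains from aggregating, used its ends differently in the lines. Its PACs are the ends of different last exons, 31115 nt and 5 nt before the annotated gene end, which belong to the short and the long annotated isoform. The proximal PAC had 41.1, 29.5, 85.8 and 65.9 TPM and the distal one 51.4, 57.8, 11.3 and 16.9. Distal usage was 55.6%, 66.2%, 11.7% and 20.4%, and no Wilson interval of one line reached one of the other. The difference, TE-1 minus KYSE30, was −44.8 percentage points (SE 3.28, limma adjusted p = 0.00795), while summed TPM of DNAJB6 did not pass (log2 difference 0.00, SE 0.09, adjusted p = 0.984). The difference, l-lactate minus control, was −10.6 points in KYSE30 and −8.78 points in TE-1 (−9.70 points over both lines, SE 3.28, adjusted p = 0.455). The last 30 nt before each dominant site (GRCh38, plus strand, signal in capitals where it lies in these 30 nt) are shown because these ends carry the switch. The signal of the proximal site, AATAAA, lies further upstream, and TGTA was found in the last 100 nt of the distal site and not of the proximal one.
DNAJB6 proximal, chr7:157386295-157386324: ttggtgcattcttcctgagtgggatctgga
DNAJB6 distal, chr7:157417405-157417434: acctacataAATAAAacataagcatattga

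HSPA4, an HSP110 protein, had distal usage of 41.8%, 36.4%, 26.8% and 20.4%. The difference between the lines was −15.5 points (SE 2.75, adjusted p = 0.0321), and that between l-lactate and control 5.41 points in KYSE30 and 6.40 points in TE-1 (adjusted p = 0.521). DNAJC11, a J protein of mitochondria, had only its distal PAC listed in KYSE30 (100% in both libraries, of 173 and 198 tags). In TE-1 its distal usage was 83.9% and 72.9% (−21.6 points, SE 3.13, adjusted p = 0.0221). A PAC under 8 tags, the lowest value listed in either KYSE30 library, would not appear. DNAJC9, a histone chaperone, had 15.4%, 12.5%, 10.7% and 6.70% (−5.25 points, SE 1.12, adjusted p = 0.0462). These calls depended on the minimum TPM, since 0 of 16 chaperone genes and 0 of 2591 genes passed with a minimum of 1 TPM. On a log odds scale DNAJC9 did not pass (adjusted p = 0.0572).

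Within single lines, 3 of 15 chaperone genes differed in distal usage by at least 10 points between l-lactate and control in KYSE30 (DNAJB6, HSPA13 and HSPA4L, all lower), beside 10.6% of all genes (3.77% higher and 6.83% lower). HSPA13, an HSP70 of microsomes, had, in KYSE30, 72.5% (95% Wilson interval 66.9 to 77.5) with l-lactate against 84.8% (79.9 to 88.7) in the control, and 82.7% (78.9 to 86.0) and 91.3% (88.2 to 93.6) in TE-1. The difference was −10.4 points over both lines (SE 1.97, adjusted p = 0.455). HSPA13 also shows what such a share rests on: its proximal PAC had 10.3, 5.25, 8.86 and 3.66 TPM and its distal one 27.2, 29.4, 42.4 and 38.2. HSPA4L had 33.8% and 46.2% in KYSE30, with overlapping intervals, and 26.4% and 33.01% in TE-1. In TE-1, 3 of 16 passed 10 points (2 higher and 1 lower), beside 12.3% of all genes (6.64% higher and 5.68% lower). DNAJC10 had 21.8% (17.5 to 26.7) with l-lactate and 7.27% (4.94 to 10.6) without, and in KYSE30 13.8% and 9.76%. The DNAJC10 PAC with most tags, proximal to that site, had 84.7, 75.7, 24.2 and 25.8 TPM. It had no poly(A) signal and was followed by A-rich sequence, as defined below. Whether priming on that sequence made it was not tested. DNAJC11 differed by 10.9 points, with intervals that did not overlap, and DNAJB4 by −10.1 points, with intervals that did. The intervals cover counting error only. The ends of HSPA13 (GRCh38, minus strand, signal AATAAA in capitals) both carry the main signal.
HSPA13 proximal, chr21:14372798-14372827: tgtcatAATAAAgccatgattgctatctta
HSPA13 distal, chr21:14371117-14371146: AATAAAtaccattttgcagtttgtttttta

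**Figure D4:**
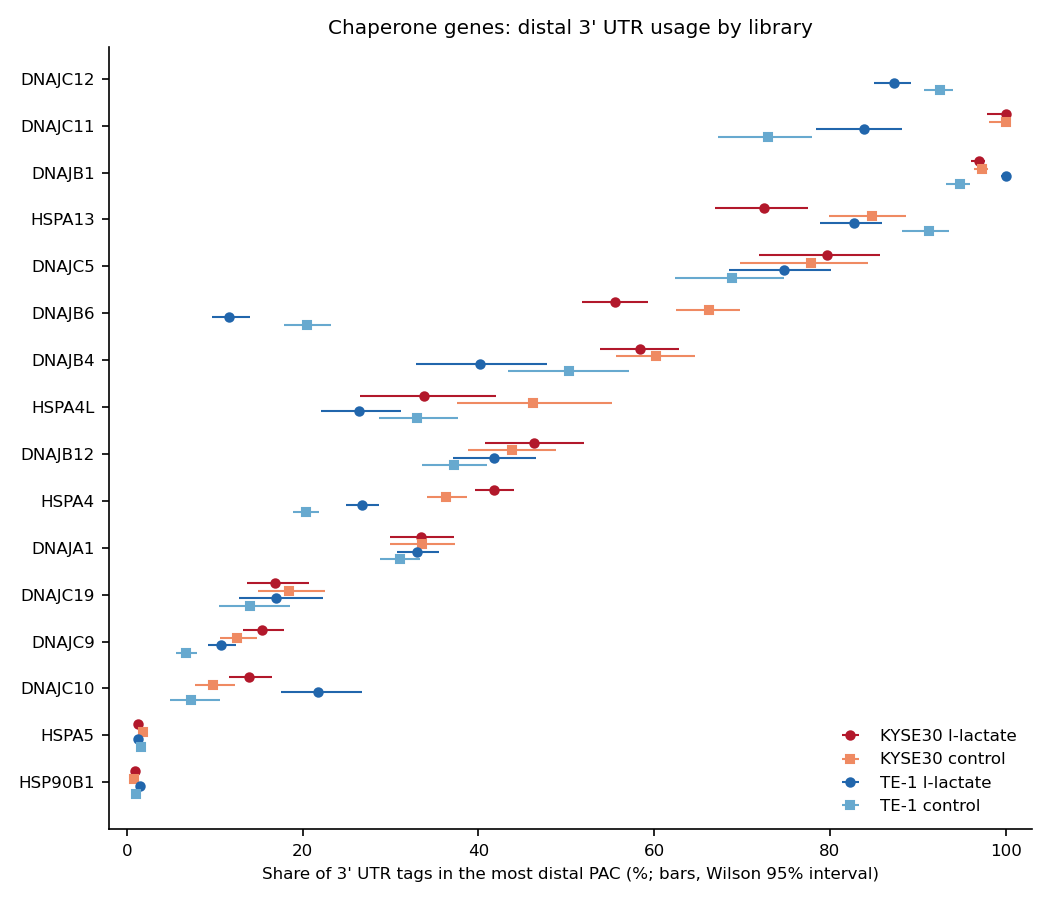
Share of 3′ UTR tags in the most distal PAC (percent, x axis) for the 16 chaperone genes with at least 2 such PACs, in the 4 libraries (circles, l-lactate; squares, control; red tones, KYSE30; blue tones, TE-1; bars, Wilson 95% interval). DNAJB6 is split between the lines, DNAJC12 has values in TE-1 only, and HSPA13 is lower with l-lactate in both lines.

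A small group of PACs lay inside coding exons of HSP90 and HSP60 genes. There were 8 of them, 8.89% of the chaperone PACs against 0.620% of all PACs in protein-coding genes. In 0 of the 8 was a poly(A) signal found, beside 43.6% of the coding exon PACs of all genes. At 7 of 8 the sequence just after the site was rich in A. The share was 36.2% for the coding exon PACs of all genes and 1.33% for the 3′ UTR PACs of chaperone genes. Rich in A meant at least 7 A within 10 nt, in windows starting in the first 6 nt after the site. Otherwise 6 A in a row within the first 12 nt were needed. Whether priming on A-rich stretches of the transcript made these PACs was not tested. HSP90AA1 rests most on them, with 50.4%, 51.8%, 55.9% and 48.04% of its TPM, and on its 3′ UTR PAC alone the difference between the lines was 0.36 (adjusted p = 0.00122) in place of 0.39.

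In all but 2 of the 8 the KYSE30 control and TE-1 with l-lactate were above both other libraries. In HSP90AA1 the PAC 2362 nt before the gene end had 1.67, 15.1, 25.4 and 2.12 TPM. In HSP90AB1 the PAC 2764 nt before the end had 0, 8.75, 12.04 and 0 TPM and the PAC 1715 nt before it 0, 4.17, 4.01 and 0, while in HSPD1 the PAC 2482 nt before the end had 0, 7.27, 3.31 and 0. The 3′ UTR PAC of HSP90AB1 did not share this pattern, at 2569, 2473, 2286 and 2384 TPM. Among PACs with a mean of at least 3 TPM, lower with l-lactate in KYSE30 and higher in TE-1 past 1.5-fold were 2 of 4 coding exon PACs and 0 of 70 3′ UTR PACs of chaperone genes, beside 12.7% of coding exon PACs and 0.148% of 3′ UTR PACs of all genes. The difference between the lines was not tested. One of the exceptions, the PAC of HSP90AA1 with most tags in a coding exon, had 170.0, 155.7, 224.0 and 205.1 TPM. The sequence from 10 nt before to 20 nt after these sites is shown (GRCh38, sense strand, the 20 nt after the site in capitals), with the 3′ UTR site of HSP90AB1 for comparison.
HSP90AA1 coding exon, chr14:102083084-102083113: agaagcaggaAGAGAAAAAAACAAAGTTTG
HSP90AB1 coding exon, chr6:44251115-44251144: acctttttgaGAACAAGAAGAAAAAGAACA
HSPD1 coding exon, chr2:197489046-197489075: caactagtgaATATGAAAAGGAAAAACTGA
HSP90AB1 3′ UTR, chr6:44253870-44253899: gccgtttttaTACAGTTCTGCTTTCCCTTG

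**Figure D5:**
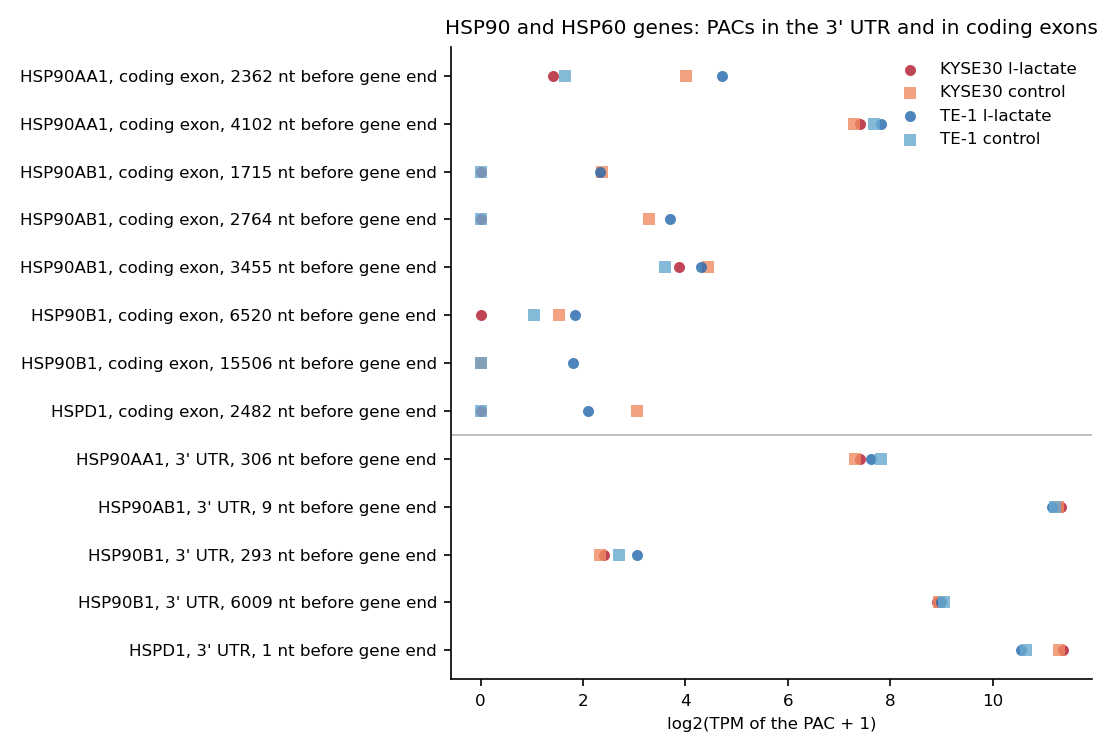
TPM of the PACs in coding exons (above the line) and in 3′ UTRs (below it) of HSP90AA1, HSP90AB1, HSP90B1 and HSPD1, as log2(TPM + 1), with the distance of each to the annotated gene end. For most coding exon PACs the KYSE30 control and TE-1 l-lactate points lie to the right of the other libraries, whereas for 3′ UTR PACs the points lie together or split by line.

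Promoters, the 250 bases before to 50 after the start of a gene, were matched in RefSeq (GRCh38.p14) for 68 of the 76 genes. The heat shock element bound by HSF1 was sought on both strands as the blocks TTC, GAA and TTC, each 2 bases from the next. It was found in 4 of 68 promoters (5.88%) and in 55 of 15345 protein-coding genes (0.358%). The 4 were DNAJA1, DNAJB6, HSPA6 and HSPA8, shown on the strand of the gene with the match in capitals. DNAJA1 was higher in TE-1, DNAJB6 did not differ past the threshold, HSPA6 was not listed and HSPA8 is uncertain, and 0 of them passed the test for l-lactate. A window without these letters says nothing about HSF1.
DNAJA1, chr9:33025268-33025297: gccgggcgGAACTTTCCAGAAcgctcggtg
DNAJB6, chr7:157336865-157336894: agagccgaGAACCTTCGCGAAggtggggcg
HSPA6, chr1:161524458-161524487: cggaaaggTTCGCGAAAGTTCgcggcggcg
HSPA8, chr11:123062170-123062199: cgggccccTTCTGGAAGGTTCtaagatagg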

How the data were processed

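PAS-seq was done on 4 libraries, 1 per line and treatment. The study's methods give trimming with the FASTX-Toolkit, alignment to the human genome (GRCh38.p14 in the submitters' processing notes) with HISAT2, and clustering of cleavage sites with CAGEr, with removal of low sites and joining of near clusters. The deposited values are RPM values that the authors call TPM: the tags of each PAC over all tags of its library, with no correction for length. Whole tags and depth were worked out from the steps between values, for Wilson intervals and counting intervals, which cover counting error only.

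PACs were summed per GENCODE 44 gene and fitted with limma 3.58.1 (R 4.3.3, line + treatment, trend) on log2(TPM + 1), for genes with a mean of at least 5 TPM, with Benjamini-Hochberg adjustment over all genes tested and a threshold of 0.05. Distal usage was fitted likewise, in percent. Within a line there is no test, and 1.5-fold or 10 percentage points were used. PACs were placed as 3′ UTR, coding exon, other exon or intron, and sequences were read with pysam 0.24.0. Of the per-sample columns in the tables, 0 were left out. Promoters are those of RefSeq. The line stands in the model as a block, since each l-lactate library has its control in the same line.

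The genes and lists were chosen with earlier results of these data known. Named were the 10 highest genes, up to 6 in each direction between the lines, up to 4 in each direction with l-lactate that kept their sign in both lines, those past 1.5-fold, those with a call in distal usage, HSPA1A and HSPA1B, and the 3 with the most PACs. DNAJA1, DNAJA2, DNAJC2, DNAJC3, DNAJC7, DNAJC8, DNAJC19, DNAJC24, DNAJC30, HSPA14, HSPBAP1, SOX2 and KRT17 were named after their values were seen. Alternatives changed the pseudocount, the filters, the gene span, the scaling and the thresholds. One on 3′ UTR PACs alone was added after the data were seen.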

Additional observations from a re-analysis of the deposited data

Results flagged for a closer look

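PACs in coding exons of HSP90 genes differed with l-lactate in opposite directions in the lines. For the PAC of HSP90AA1 that lies 2362 nt before the gene end, the log2 change on the log2(TPM + 1) scale was −2.59 in KYSE30 and 3.08 in TE-1, from 12 against 112 tags and 215 against 22 tags. For the PAC of HSP90AB1 that lies 2764 nt before the gene end it was −3.29 in KYSE30 and 3.71 in TE-1, from 0 against 65 tags and 102 against 0 tags. Both stood out because the 1 library pair of one line went one way and that of the other line the opposite way. The difference was not tested, and its cause was not tested. Both sites are followed by A-rich sequence and have no poly(A) signal in the 50 nt before them.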

How the results depend on the processing

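The planned count test with edgeR was not run. Leaving out a library leaves 3 libraries for 3 coefficients and no residual degrees of freedom, so it gives no test. With no replicate block (line left out of the model), 0 chaperone genes passed for l-lactate in level and 0 in distal usage, with a lowest adjusted p of 1.0 in each. Of the values that answer a comparison, 40 kept within 1.5 times and 12 did not. For l-lactate in level, where 0 passed, 2 chaperone genes passed with a pseudocount of 5 (DNAJB11 and HSPA5, beside 167 of all genes), 2 with a mean of at least 20 TPM (the same pair, 121 of 6065 genes) and 1 with spans extended by 5 kb (DNAJB11, 31 of 9505 genes). Between the lines 33 to 41 chaperone genes passed in level, the readthrough genes counted. In distal usage with a minimum of 10 TPM, 3 passed for l-lactate (DNAJC10, DNAJC9 and HSPA13, beside 157 of 1205 genes) and 7 between the lines (beside 651 of 1205), and with a minimum of 1 TPM 0 passed between the lines (lowest adjusted p 0.0536, 0 of 2591 genes). Past 1.5-fold in KYSE30 were 2 with a pseudocount of 0.5, and 0 with a pseudocount of 5, with a mean of at least 20 TPM or past 2-fold. Distal usage calls in TE-1 numbered 10 at 5 points (beside 34.0% of all genes) and 1 (DNAJC10, beside 7.04%) when Fisher's exact test on tags was also required. The cause of these differences was not tested.

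For single genes, 612 alternatives gave the same call, 13 brought a value past the threshold, 5 took it below and 11 turned its sign. DNAJA2 between the lines was −0.24 with spans extended by 5 kb, where the added site is counted. With libraries rescaled by TMM, l-lactate changes close to 0 turned in DNAJA4 (−0.0083), DNAJB1 (−0.015), HSPA12A (−0.0138), HSPB7 (−0.0052) and HSPB8 (−0.011), and line differences turned in DNAJB6 (0.0013) and DNAJC25 (0.0026, and 0.0021 with a pseudocount of 5). DNAJC10 distal usage between the lines was −1.47 points with a minimum of 1 TPM. HSP90AA1 with l-lactate was −0.051 on its 3′ UTR PAC alone, where the coding exon PACs are not counted. Genes listed near 1 TPM, about 8 to 11 tags, are limited by depth.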
